A study of Homo sapiens with 8 samples.

Results

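The 103 genes described here are mostly those of the enzymes that place and remove methyl and acetyl groups on histone tails. With them are PHD finger and chromobox proteins, a group that includes readers of those marks. The 103 genes also take in 3 noncoding RNA genes (KDM4A-AS1, KDM7A-DT and KMT2E-AS1) and the pseudogene CBX3P2, which share those names. They were chosen by symbol, as the named KDM, KMT2, KMT5, SETD, NSD1, NSD3, EZH, PRMT, HDAC, SIRT, KAT, SUV39H, EHMT, PHF and CBX genes together with MTF2 and SUZ12, and they are 103 of the 14812 genes with a name on the array. They occupied 110 rows of the table, and a gene with several rows was represented by its brightest. Of the 103 genes, 98 passed a limit on brightness (an intensity of 46.7, which is the 25th percentile of gene means) and were tested among 11109 genes. The other 5 were CBX3P2, KDM4E, KDM5D, SETD9 and SIRT4. The members nearest the limit were PRMT8 at a mean of 51.0 and KDM4D at 52.5 inside it, and SIRT4 at 46.3 and SETD9 at 44.9 outside it. The arrays of CBX3P2, KDM4E, SETD9 and SIRT4 read between 35.1 and 55.3, and KDM5D was counted only. NSD2, the target of the study, was left out by the choice of members, and EED and ASH1L, which the choice names, were not analysed here.

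The cells were KMS11, KMS18, KMS34 and OPM2, 4 established lines of human multiple myeloma (a plasma cell cancer) that share the t(4;14) translocation. Each line gave RNA from 1 culture with a knockdown of MMSET I and from 1 control culture, and each RNA went onto its own Affymetrix Human Gene 2.0 ST array, so that there were 4 knockdown and 4 control arrays. Both groups had been infected with lentivirus in 8 µg/mL polybrene, given fresh medium after a day and kept for 48 h more before RNA extraction, whereas the series' design text speaks of 72 h with shRNA, in KMS11 alone. Neither the shRNA sequence nor what the control virus carried was given in the sources used here. Each line is a single immortal culture, so p-values rest on the spread of the knockdown difference over 4 lines. That spread was moderated for each gene toward the value of all tested genes (8.998 prior against 3 residual degrees of freedom). The error is thus not the gene's own spread alone.

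In t(4;14) myeloma the immunoglobulin heavy chain enhancers drive NSD2 (MMSET), whose full-length product dimethylates histone H3 at lysine 36. High NSD2 activity spreads this mark through the genome and displaces trimethylation of lysine 27 by Polycomb repressive complex 2 (PRC2), since PRC2 works poorly on nucleosomes that carry lysine 36 methylation. MMSET I is the short isoform, which keeps the PWWP domain that reads lysine 36 methylation but lacks the catalytic SET domain. The members thus comprise the enzymes that share the substrate of NSD2, those that antagonise it, and the writers, erasers and readers of the other main histone marks.

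The deposited values are linear intensities, and a difference below is knockdown minus control on the log2 scale unless it is said to be between lines. The targeted gene, NSD2, had a mean intensity of 656 ± 75.9 in knockdown arrays and 743 ± 55.2 in control arrays (SD, n = 4 each). Every line was below its control (-0.13, -0.31, -0.14 and -0.16 in KMS11, KMS18, KMS34 and OPM2). The mean log2 difference of -0.18 did not pass the test over all genes (limma with cell line as a block, unadjusted p = 0.0132, adjusted p = 0.472). The row is named for the gene, and which isoforms its probes read was not examined here. Its value is therefore not a measure of MMSET I alone. GLO1, which the series title names, averaged 566 ± 125 in knockdown arrays and 946 ± 129 in control arrays (adjusted p = 0.00142). Of 10 plasma cell markers 7 had a named row, and IRF4, XBP1, MZB1, SLAMF7 and SDC1 read 778 or more on every array, while CD38 ran between 50.6 and 416 and CD27 between 56.2 and 86.6. The 6 named T and NK cell markers summed to 399 to 468 in knockdown arrays and 383 to 467 in control arrays, and the 7 myeloid ones to 414 to 504 in knockdown arrays and 454 to 499.7 in control arrays. The 3 stromal and endothelial markers summed to 102 to 112 in knockdown arrays and 104 to 109 in control arrays. The 20 cycling-cell genes were all below 0 on average, with a median of -0.14, where 51.6% of all tested genes lay below 0. Of the 20, 0 passed the test and 8 had an unadjusted p under 0.05, where 4.15% of all genes were lower with such a p. In bulk cultures, fewer cells of a kind and less RNA per cell cannot be told apart.

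No member passed the knockdown test. At an adjusted p under 0.05, 0 of 98 members were called, against 13 of all 11109 genes tested (0.117%), of which 11 were lower (0.099%) and 2 higher (0.018%). At an unadjusted p under 0.05, 10 of the 98 members were found (10.2%), close to the share of all genes (8.41%). The 6 on the lower side were KDM4B, MTF2, HDAC6, NSD3, SIRT3 and SUZ12, where 4.15% of all genes lay. The 4 on the higher side were KMT5B, SIRT5, NSD1 and PHF2, where 4.26% of all genes lay. The median log2 difference of the members was -0.026, against -0.0033 for all tested genes, and the members ranged between -0.22 for MTF2 and 0.21 for KMT5B. Of the members, 56 of 98 had a mean below 0 (57.1%), against 51.6% of all genes. A difference in the same direction in 4 of 4 lines was seen downward for 12 members (12.2%, against 8.76% of all genes) and upward for 7 (7.14%, against 8.29%). The 12 were HDAC6, KAT8, KDM1A, KDM4B, KMT2D, KMT5C, MTF2, NSD3, SIRT3, SIRT6, SUV39H1 and SUZ12, and the 7 were KMT5B, NSD1, PHF2, PHF20L1, SETD5, SETD7 and SIRT5. These shares lie near the background, so they single out no property of the members.

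**Figure D1:**
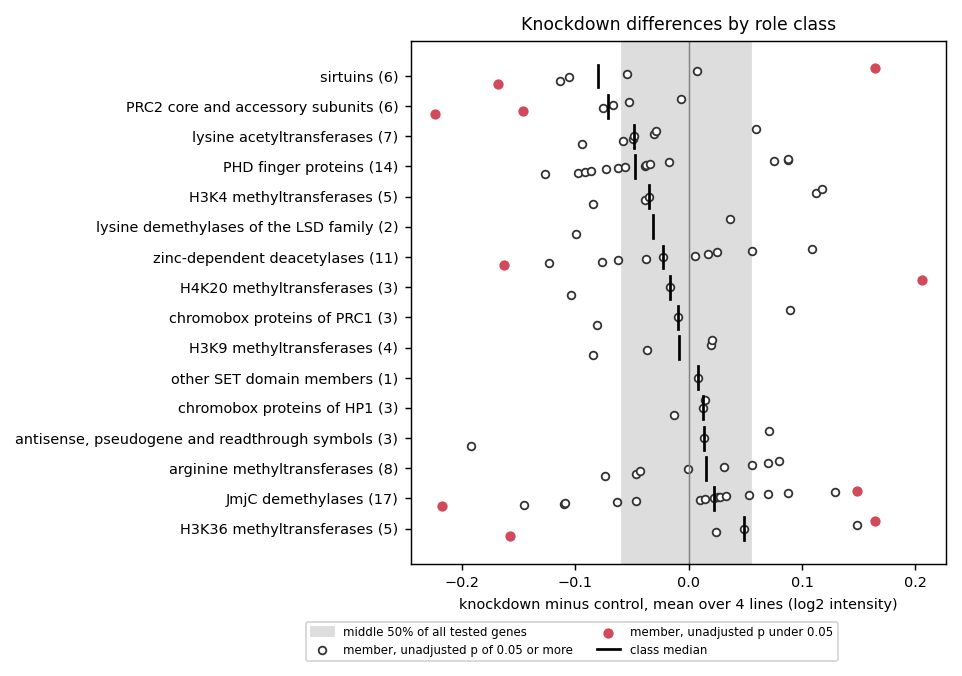
Knockdown minus control (log2 intensity, mean over 4 lines, horizontal axis) for the 98 tested members, 1 point per gene, in rows by role class with the number tested in brackets. Filled points have an unadjusted p under 0.05, black bars are class medians and the grey band is the middle 50% of all tested genes. All 6 points of the PRC2 class lie left of 0 and no class lies wholly outside the band.

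Of the 5 tested members classed here as lysine 36 methyltransferases, 4 had a mean above 0 and none passed the test. Over all genes, 51.6% had a mean below 0. The class takes in SETD3 and SETD5, whose part in writing that mark was not examined here. NSD1, a close relative of NSD2 and a writer of lysine 36 dimethylation, had intensities of 231, 199, 138 and 189.8 in the knockdown cultures of KMS11, KMS18, KMS34 and OPM2, against 187, 181, 122 and 185 in the control cultures in the same order of lines, which is kept from here on. It was above its control in 4 of 4 lines, furthest in KMS11, where the log2 difference was 0.30, and its mean difference was 0.16 ± 0.0661 (SE; unadjusted p = 0.0289, adjusted p = 0.565). NSD3, the third member of the same family, had 279, 209, 189 and 278 in knockdown cultures, against 299, 232, 216 and 315 in controls. It lay below its control in 4 of 4 lines with a mean difference of -0.16 ± 0.0609 (adjusted p = 0.541). NSD1 and NSD3 thus lay on opposite sides of 0, and for both the lines overlapped between conditions. NSD3 has a second, dimmer row, whose mean difference was -0.0082.

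SETD2, the enzyme that trimethylates lysine 36 along transcribed genes, differed by 0.049 (adjusted p = 0.87). SETD5, a SET domain protein, measured 235, 367, 354 and 256 in knockdown cultures, against 185, 364, 342 and 224 in controls, a difference of 0.15 (unadjusted p = 0.0582, adjusted p = 0.616). All 4 lines lay above their control, by 0.34 in KMS11 and by 0.0092 to 0.19 in the others. SETD3, better known as an actin histidine methyltransferase, differed by 0.024 and was below 0 without KMS11.

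All 6 tested members classed here as PRC2 had a mean below 0, with a class median of -0.071, and 2 of them had an unadjusted p under 0.05. Over all genes, 51.6% had a mean below 0 and 4.15% were lower with such a p. RBBP4, RBBP7 and AEBP2, PRC2 components counted below with other Polycomb genes, stood at -0.049, 0.064 and -0.059. RBBP7 was above its control in 4 of 4 lines, so not every PRC2 gene lay below 0. SUZ12, the scaffold of the core complex, had 1637, 1437, 1180.5 and 1211 in knockdown cultures, against 1899, 1467, 1349 and 1342 in controls. It was below its control in 4 of 4 lines, with -0.029 in KMS18 and -0.21 in KMS11 (mean -0.15, unadjusted p = 0.0399, adjusted p = 0.59). MTF2 is a Polycomb-like subunit that brings PRC2 to unmethylated CpG islands. Its intensities were 231, 231, 308 and 286 in knockdown cultures, against 299, 243, 364 and 330.0 in controls. Every line was below its own control, with the widest gap in KMS11 (-0.37) and the narrowest in KMS18 (-0.077), and the mean was -0.22 ± 0.0672 (SE; unadjusted p = 0.00606, adjusted p = 0.4). The catalytic subunits lay nearer 0: EZH2 differed by -0.066 (adjusted p = 0.815) and EZH1 by -0.0065 (adjusted p = 0.987), which is 0.0048 after quantile normalization, so that 5 of 6 PRC2 genes were below 0 there. The other Polycomb-like subunits were PHF1 at -0.075 and PHF19 at -0.053. PHF1 has 2 further rows of similar brightness, and these stood at 0.035 and 0.019, so its direction depends on the row. Beside the PRC2 genes, the cycling-cell genes had a median of -0.23 in KMS11, where MTF2 and SUZ12 were furthest below 0. That median was -0.12 in OPM2, -0.089 in KMS18, where MTF2 and SUZ12 were nearest 0, and -0.046 in KMS34, where MTF2 stood at -0.24. The part of the cycling-cell genes in the PRC2 values was not tested.

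The H3K9 writers stayed near 0, with SUV39H1, which builds heterochromatin, at -0.084, below 0 in 4 of 4 lines but at 0.068 on its second row. SUV39H2 differed by 0.019, EHMT1 by 0.021 and EHMT2 by -0.037. KMT5B, which writes the higher methylation states of H4K20, had the highest mean difference of all members. It measured 391, 231, 325 and 384 in knockdown cultures, against 321, 187, 296 and 359 in controls, and the mean difference was 0.21 ± 0.0655 (SE; unadjusted p = 0.00848, adjusted p = 0.43). Each line lay above its control, with KMS18 (0.30) and KMS11 (0.29) above OPM2 (0.097). Its relative KMT5C was below 0 in 4 of 4 lines (197, 206, 217 and 206 in knockdown cultures, against 229, 213, 221 and 224 in controls), at a mean of -0.10, and KMT5A, which adds the first methyl group, stood at -0.016.

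Of the H3K4 writers, KMT2D was lower in 4 of 4 lines at -0.085 (adjusted p = 0.75). KMT2C, like KMT2D an enhancer methyltransferase, stood at 0.11, with the largest difference in KMS11, where it was 695 in the knockdown culture and 559.6 in the control. SETD7, a monomethyltransferase, was above its control in 4 of 4 lines (mean 0.12, adjusted p = 0.668), while KMT2B stood at -0.035 and SETD1A at -0.039. The 8 arginine methyltransferases split evenly, 4 above and 4 below 0, between -0.074 for PRMT5, the main symmetric dimethylating enzyme, and 0.08 for PRMT2.

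The JmjC demethylases divided into 11 of 17 above and 6 below 0, where 51.6% of all genes lay below 0. KDM4B, which removes methyl groups from lysines 9 and 36 of H3, had the second lowest mean difference of all members. Its intensities were 162, 141, 156 and 159 in knockdown cultures, against 176, 159, 188 and 197 in controls. All 4 lines were below their control, OPM2 at -0.30 and KMS11 at -0.12, and the mean was -0.22 ± 0.0636 (SE; unadjusted p = 0.00516, adjusted p = 0.379). Of its paralogs, KDM4A stood at -0.063, KDM4C at 0.027 and the dim KDM4D at 0.13. The mean of KDM4A came from KMS11 (-0.30), and without that line it was 0.017. The lysine 36 demethylases KDM2A and KDM2B differed by 0.014 and -0.11. PHF2, a JmjC protein linked to H3K9, measured 367, 340.1, 98.8 and 349 in knockdown cultures, against 316, 325, 89.3 and 309 in controls. It was above its control in 4 of 4 lines (mean 0.15 ± 0.062, unadjusted p = 0.0337, adjusted p = 0.578), and its KMS34 values were far under those of the other lines in both conditions. KDM8, also called JMJD5, was lower in 3 lines and higher in OPM2, with a mean of -0.15 (adjusted p = 0.599). KDM1A (LSD1), a flavin-dependent H3K4 demethylase, was lower in 4 of 4 lines at -0.099, and KDM1B stood at 0.036.

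Promoter sequence is shown for MTF2 and KDM4B, which had the 2 lowest knockdown differences. Each is the 250 bases before the RefSeq start on GRCh38.p14, 5′ to 3′ on the strand of the gene, at chr1:93079033-93079282 (plus strand) for MTF2 and chr19:4968863-4969112 (plus strand) for KDM4B. Capitals mark GGGCGG (GC box), CCAAT and TGACGT (core of the cAMP response element) on either strand, overlapping matches included, and KDM4B holds 4 GC boxes and 4 CCAAT matches where MTF2 holds none of the motifs.
MTF2: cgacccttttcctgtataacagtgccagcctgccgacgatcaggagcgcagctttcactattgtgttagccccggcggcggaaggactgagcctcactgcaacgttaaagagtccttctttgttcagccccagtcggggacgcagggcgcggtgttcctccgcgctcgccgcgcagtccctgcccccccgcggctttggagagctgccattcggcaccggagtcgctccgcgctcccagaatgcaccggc
KDM4B: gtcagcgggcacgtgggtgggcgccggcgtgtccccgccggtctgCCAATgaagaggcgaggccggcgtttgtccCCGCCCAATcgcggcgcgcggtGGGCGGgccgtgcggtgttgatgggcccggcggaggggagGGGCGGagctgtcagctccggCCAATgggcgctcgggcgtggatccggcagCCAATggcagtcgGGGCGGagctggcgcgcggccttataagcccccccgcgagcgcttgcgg

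Of 7 tested acetyltransferases 6 had a mean below 0, against 51.6% of all genes. All 7 differences were small, between -0.094 for KAT8, the H4K16 enzyme, and 0.059 for KAT6B. The zinc-dependent deacetylases split 6 below to 5 above 0. HDAC6, a cytoplasmic enzyme best known for deacetylating tubulin, had 197, 122, 157 and 148 in knockdown cultures, against 232, 141, 174 and 155 in controls. Every line lay below its control (mean -0.16 ± 0.0628, unadjusted p = 0.0236, adjusted p = 0.539), with KMS11 and KMS18 further out than OPM2. HDAC7, of the signal-regulated class IIa, stood at -0.12 and HDAC3, the catalytic subunit of the NCoR complex, at 0.11, neither with a common sign. HDAC4 stood at -0.063 on the row used and at 0.085 on its dimmer row.

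The sirtuins, deacylases that consume NAD, held a pair of mitochondrial members on opposite sides of 0. SIRT5, which removes succinyl and malonyl groups, measured 154, 173, 161 and 106 in knockdown cultures, against 137, 148, 149 and 94.7 in controls (mean 0.16 ± 0.0609, adjusted p = 0.511). SIRT3, the main mitochondrial deacetylase, measured 93.2, 110.1, 117 and 135 in knockdown cultures, against 115, 129, 125 and 140.1 in controls (mean -0.17 ± 0.0666, adjusted p = 0.557). Each kept its sign in 4 of 4 lines, and SIRT3 was furthest below 0 in KMS11 (-0.30) and KMS18 (-0.23). The nuclear sirtuins SIRT1 and SIRT6 both stood at -0.11, SIRT6 below 0 in 4 of 4 lines and SIRT1 in 3.

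In the class of PHD finger proteins, formed by symbol, 11 of 14 had a mean below 0, against 51.6% of all genes. None had an unadjusted p under 0.05. Whether each of them reads a histone mark was not examined here. PHF7 had the lowest mean of them at -0.13, and PHF20L1, a reader of methylated lysine, was above its control in 4 of 4 lines at 0.088. The HP1 genes, which bind H3K9 methylation, stood at 0.012 for CBX1, -0.013 for CBX3 and 0.014 for CBX5. Of the Polycomb chromobox genes, CBX2 stood at -0.081, CBX6 at -0.0094 and CBX7 at 0.09. CBX6 had opposite differences in KMS11 (0.27) and KMS18 (-0.28) on the row used, but its dimmer row differed by -0.022 and 0.00013 there. Of the 3 noncoding members, KDM4A-AS1 had the lowest mean at -0.19, with KMS18 on the other side of 0 (0.27), and the strand that the probes read was not given in the sources used here.

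**Figure D2:**
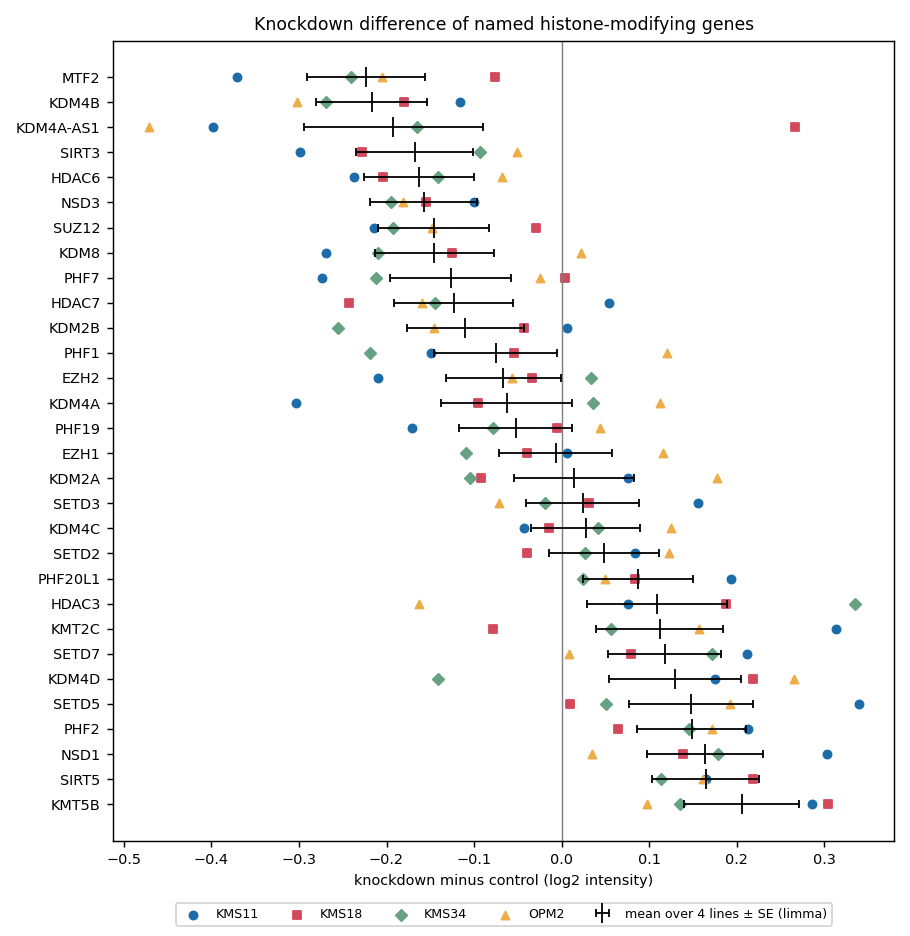
Knockdown minus control within each line (log2 intensity, horizontal axis) for the named members, 1 coloured point per line, with the mean over 4 lines ± SE (limma) in black; genes run down the page by mean. KDM4B and MTF2 have all 4 points left of 0 and KMT5B all 4 right of 0, whereas members near the middle have lines on both sides.

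Within single lines there is 1 array per condition and no test. At least 1.2-fold lower in the knockdown culture of KMS11 were 6 of 98 members (6.12%, against 6.99% of all genes), namely KDM4A, KDM4A-AS1, KDM8, MTF2, PHF7 and SIRT3. At least 1.2-fold higher there were another 6 (6.12%, against 6.19%), namely CBX6, KDM5B, KMT2C, KMT5B, NSD1 and SETD5. KMS18 had 1 member lower, CBX6 (4.37% of all genes), and 3 higher, KDM4A-AS1, KMT5B and PRMT2 (4.82%). KMS34 had 2 lower, KDM4B and PHF13 (4.74% of all genes), and 1 higher, HDAC3 (4.19%). OPM2 had 3 lower, KDM4A-AS1, KDM4B and KDM7A (4.54% of all genes), and 3 higher, HDAC9, KDM4D and PHF14 (5.29%). The members' shares were under those of all genes in each line and direction. The H3K4 demethylase KDM5B differed in sign between lines: it was 246 in the knockdown culture of KMS11 against 184 in its control, while in KMS18 it was 77.5 in the knockdown culture against 92.6 in the control.

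The partners of these enzymes gave the same picture, and 0 genes of any partner list passed the test. For the counts that follow, 51.6% of all tested genes were below 0 and 8.41% had an unadjusted p under 0.05. Of 15 tested genes of PRC1 and other Polycomb complexes, 12 were below 0, and the 1 with an unadjusted p under 0.05 was RYBP, a PRC1 subunit, at 0.17 with 260.4, 317, 518 and 296 in knockdown cultures, against 253, 279, 499 and 226 in controls. Of 10 partners of the H3K4 methyltransferases 6 were below 0, and PSIP1, which reads lysine 36 methylation, was lowest at -0.16 (unadjusted p = 0.0471). Of 20 acetyltransferase genes and partners 12 were below 0, with JADE2, a scaffold of the KAT7 complex, at -0.18 (unadjusted p = 0.0169). Of 15 genes of deacetylase complexes 10 were below 0, with RCOR1, the CoREST partner of KDM1A, at -0.15 (unadjusted p = 0.0408). Bromodomain readers (4 of 7 below 0) and other histone methyltransferases and demethylases (6 of 12) held 0 genes with an unadjusted p under 0.05.

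The DNA methylation genes were the partner list with the most at an unadjusted p under 0.05, 2 of 6, against 8.41% of all genes. UHRF1, which reads H3K9 methylation and recruits DNMT1 to replicating DNA, measured 215, 248, 244 and 286 in knockdown cultures, against 248, 303, 231 and 397 in controls (-0.22, unadjusted p = 0.0197, adjusted p = 0.514). DNMT1, the maintenance methyltransferase, measured 861, 1016, 1039 and 968 in knockdown cultures, against 1000.4, 1123, 1128 and 1022 in controls (-0.14, unadjusted p = 0.0438, adjusted p = 0.593). DNMT1 lay below its control in 4 of 4 lines, and UHRF1 in all but KMS34. Both are expressed with the cell cycle, and the cycling-cell genes lay below 0 beside them; their part was not tested.

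The 4 lines differed from each other far more than the cultures within a line. Here every line has 2 arrays, and the error of the F test is the same moderated spread of the knockdown differences over lines. At an adjusted p under 0.05 the F test called 77 of 98 members (78.6%), against 75.7% of all genes, and the median range between the highest and the lowest line mean was 0.55 for members and 0.52 for all genes. A range of at least 2-fold was found in 14 members (14.3%), against 18.8% of all genes. They were EZH1, HDAC1, KAT14, KAT2A, KAT2B, KDM3A, KDM5B, KDM7A, PHF2, PHF10, PHF20L1, PRMT9, SETD7 and SUV39H2. Across members the arrays correlated at 0.986 to 0.992 within a line and at 0.874 to 0.917 between lines, as a description over 98 genes that share arrays.

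**Figure D3:**
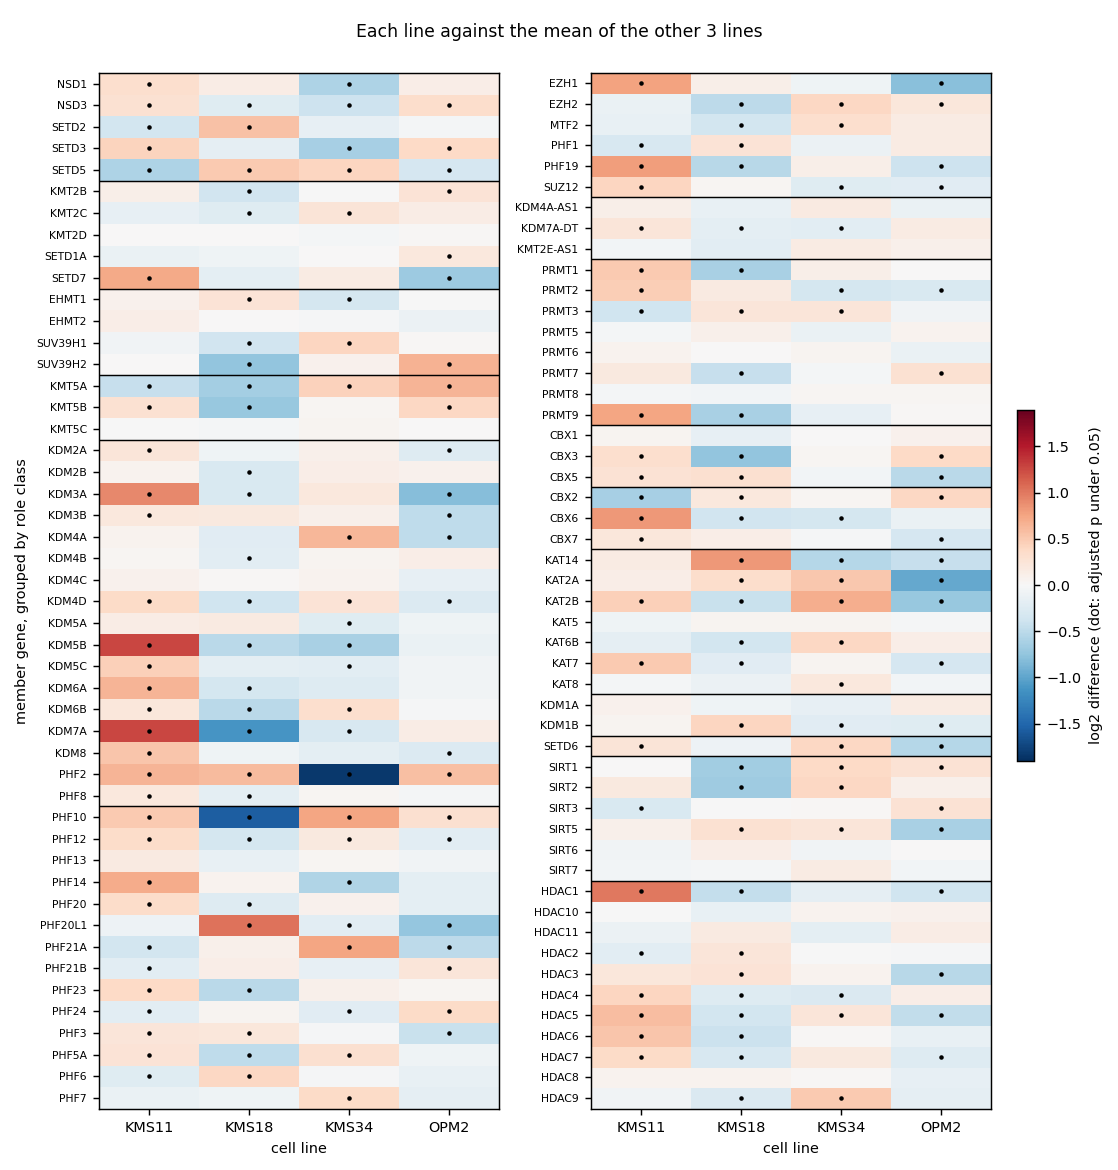
Each line against the mean of the other 3 lines (log2 difference, colour scale) for the 98 tested members, in columns by line and rows by role class, with black rules between classes. Dots mark an adjusted p under 0.05; the deepest blue cell is PHF2 in KMS34, the KMS11 column holds 43 dots on the red side and the KMS18 column 41 on the blue side.

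Against the mean of the other 3 lines, KMS11 had 43 members higher (43.9%, against 31% of all genes) and 12 lower (12.2%, against 24.5%). KMS18 lay the other way, with 17 higher (17.3%, against 19.4%) and 41 lower (41.8%, against 28.9%). KMS34 had 25 higher (25.5%, against 24.4%) and 19 lower (19.4%, against 20.9%), and OPM2 had 17 higher (17.3%, against 22.6%) and 29 lower (29.6%, against 26.1%). The split in KMS11 and KMS18 depends on the scaling of the arrays. After quantile normalization KMS11 had 31 higher and 18 lower, where 26.1% of all genes were higher and 24.3% lower. KMS18 then had 23 higher and 32 lower, where 21.7% of all genes were higher and 25.8% lower. The members' median difference in KMS11 was 0.13 on the deposited scale and 0.044 after quantile normalization, and in KMS18 it was -0.14 on the deposited scale and -0.058 after quantile normalization.

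Of the 17 JmjC demethylases, 12 were higher in KMS11 and 0 lower, where 31% of all genes were higher and 24.5% lower. After quantile normalization 8 were higher, against 26.1% of all genes. In KMS18 the class had 9 lower and 1 higher, where 28.9% of all genes were lower and 19.4% higher. After quantile normalization it had 7 lower and 3 higher, where 25.8% of all genes were lower and 21.7% higher. KDM7A, which removes methyl groups from lysines 9 and 27 of H3, measured 215, 69.3, 95.7 and 116 in knockdown cultures, against 241, 62.8, 106 and 139.7 in controls. Both KMS11 arrays were above all others and both KMS18 arrays below all others, and against the other lines KMS11 stood at 1.27 (adjusted p = 1.52e-07) and KMS18 at -1.11 (adjusted p = 5.28e-07). The divergent noncoding transcript KDM7A-DT had the same signs at lower size, 0.23 in KMS11 and -0.19 in KMS18. KDM5B, an H3K4 demethylase, measured 246, 77.5, 84.5 and 104 in knockdown cultures, against 184, 92.6, 75.6 and 102 in controls, so that KMS11 stood apart (1.26, adjusted p = 1.1e-06). KDM3A, which demethylates H3K9 and is induced by hypoxia, measured 439, 218, 268 and 165 in knockdown cultures, against 377, 219, 295 and 169 in controls. KMS11 was highest (0.91) and OPM2 lowest (-0.81) without overlap in either condition. Of the H3K27 demethylases, KDM6A was highest in KMS11 (0.65). KDM6B stood at 0.22 in KMS11 but was highest in KMS34 (0.32), as was KDM4A (0.64).

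PHF2 had the widest range of all members, 3.63-fold between line means. Its 98.8 and 89.3 in KMS34, knockdown and control, stood against 309 to 367 in the 6 arrays of the other lines, a log2 difference of -1.83 ± 0.0716 (SE; adjusted p = 1.79e-09). Without KMS34 the range of PHF2 over the remaining lines was 0.053, and the F test no longer called it. PHF2, like HDAC1, KAT2A, CBX3 and CBX6 below, was named for its range between lines. Losing the call on removal of the outlying line therefore carries no test. PHF10, a subunit of the PBAF chromatin remodeller, measured 397, 140.3, 479 and 364 in knockdown cultures, against 425, 140.3, 454 and 377 in controls. KMS18 was the low line in both conditions (-1.56 ± 0.0726, adjusted p = 6.23e-09), and KMS34 was the highest. PHF20L1 measured 212, 365, 189.7 and 144 in knockdown cultures, against 185, 345, 187 and 139 in controls, with KMS18 above (1.03) and OPM2 below the others (-0.74). PHF21A, which reads unmethylated H3K4 in the KDM1A complex, was highest in KMS34 (0.75), and PHF14 was higher in KMS11 (0.70) and lower in KMS34 (-0.58).

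The promoters of PHF2, KDM7A and PHF10, the 3 members with the widest ranges between lines, are shown in the same way (250 bases, GRCh38.p14). PHF2 lies at chr9:93576334-93576583 (plus strand), KDM7A at chr7:140176984-140177233 (minus strand) and PHF10 at chr6:169724501-169724750 (minus strand).
PHF2: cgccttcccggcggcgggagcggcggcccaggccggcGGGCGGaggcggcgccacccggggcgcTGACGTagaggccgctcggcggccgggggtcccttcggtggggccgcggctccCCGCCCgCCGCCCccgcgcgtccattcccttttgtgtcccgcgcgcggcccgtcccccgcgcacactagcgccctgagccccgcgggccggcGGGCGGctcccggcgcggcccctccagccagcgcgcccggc
KDM7A: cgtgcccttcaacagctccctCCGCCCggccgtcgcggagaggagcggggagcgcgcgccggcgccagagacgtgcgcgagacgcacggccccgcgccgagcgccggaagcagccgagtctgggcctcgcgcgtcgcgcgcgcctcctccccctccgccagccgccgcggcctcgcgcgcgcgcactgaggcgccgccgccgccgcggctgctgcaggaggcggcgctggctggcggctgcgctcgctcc
PHF10: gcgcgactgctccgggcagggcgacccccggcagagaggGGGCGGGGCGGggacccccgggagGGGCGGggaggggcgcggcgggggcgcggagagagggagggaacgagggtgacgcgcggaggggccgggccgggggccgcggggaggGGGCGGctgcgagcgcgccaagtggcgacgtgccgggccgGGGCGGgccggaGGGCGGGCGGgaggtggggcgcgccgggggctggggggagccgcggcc

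**Figure D4:**
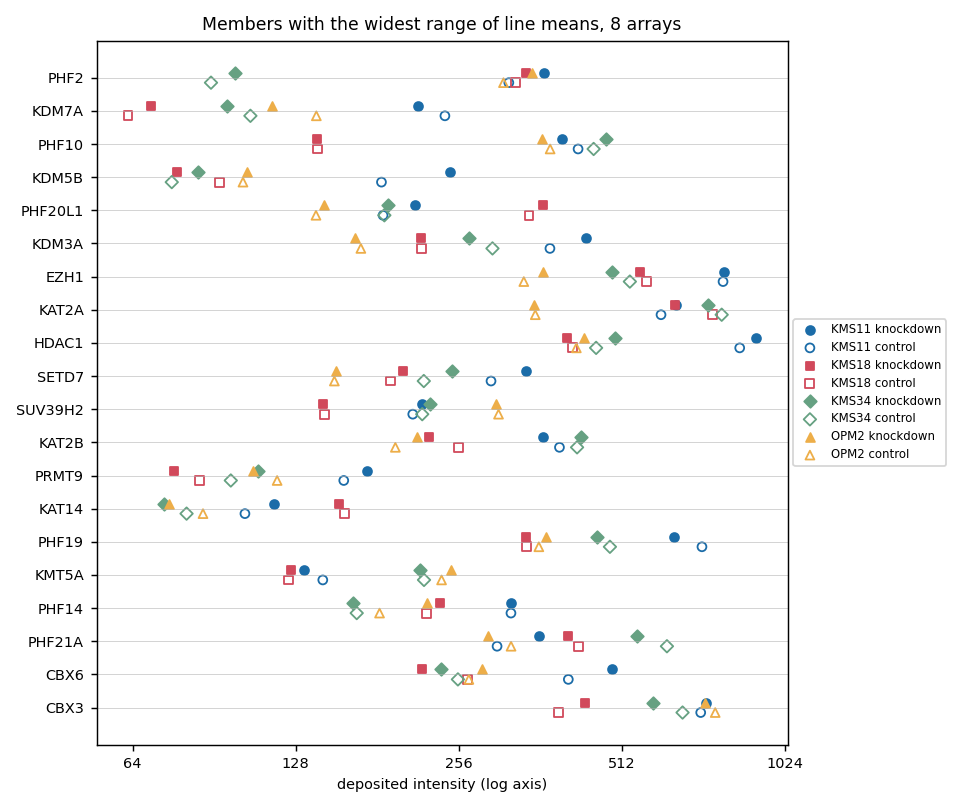
Intensity (log scale, horizontal axis) of the members with the widest range between line means, with filled points for knockdown arrays and open points for control arrays, coloured by line. The 2 arrays of a line lie close together, and PHF2 in KMS34, PHF10 in KMS18 and HDAC1 in KMS11 stand clear of the other lines.

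Among the deacetylases, HDAC1, the catalytic subunit of NuRD, SIN3 and CoREST complexes, measured 905, 405, 497 and 435 in knockdown cultures, against 844, 415, 458 and 422 in controls. KMS11 was above the other lines in both conditions (2-fold, adjusted p = 2.77e-07), and without KMS11 the F test no longer called HDAC1. Its paralog HDAC2 was lower in KMS11 (-0.20) and higher in KMS18 (0.23). HDAC5 and HDAC6 were also higher in KMS11, by 0.59 and 0.52. In KMS18 6 of 11 deacetylases were lower and 2 higher, where 28.9% of all genes were lower and 19.4% higher. HDAC3 was lower in OPM2 (-0.53) and HDAC9 higher in KMS34 (0.50). SIRT1 and SIRT2 were both lower in KMS18, at -0.67 each, and SIRT5 was lower in OPM2 (-0.61).

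OPM2 was the low line for both acetyltransferases of the SAGA type. KAT2A (GCN5) measured 644, 640.2, 738 and 352 in knockdown cultures, against 604, 752, 782 and 354 in controls, with OPM2 at -0.97 (adjusted p = 8.96e-07) and no other line near it. KAT2B (PCAF) measured 365, 225, 431 and 214 in knockdown cultures, against 392, 255, 423 and 195 in controls, so that OPM2 (-0.73) and KMS18 (-0.42) lay below KMS34 and KMS11. The range of KAT2A was not called without OPM2. KAT14, of the ATAC complex, was instead highest in KMS18 (0.83).

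The methyltransferases also had their own lines. EZH1, the PRC2 catalytic subunit of slowly dividing cells, measured 789.5, 553, 491 and 365 in knockdown cultures, against 786, 569, 529 and 337 in controls, with KMS11 highest (0.76) and OPM2 lowest (-0.79). EZH2, the subunit of dividing cells, was ordered otherwise: KMS34 (0.39) and OPM2 (0.22) were higher and KMS18 lower (-0.49). PHF19 was higher in KMS11 (0.80) and CBX2, of PRC1, lower there (-0.63). KMT5A and SUV39H2 were both lower in KMS18 and higher in OPM2: KMT5A measured 133, 125, 217 and 248 in knockdown cultures, against 144, 124, 221 and 238 in controls, and SUV39H2 219, 144, 226 and 299, against 210.4, 145, 219 and 303. SETD7 was highest in KMS11 (0.73) and lowest in OPM2 (-0.69). In the class of lysine 36 methyltransferases, NSD1 (-0.59), NSD3 (-0.39) and SETD3 (-0.63) were lower in KMS34. SETD2 was higher in KMS18 (0.55) and SETD5 lower in KMS11 (-0.58). PRMT9 was higher in KMS11 (0.76) and, with PRMT1 (-0.61), lower in KMS18 (-0.62).

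CBX3 was lower in KMS18 (-0.75), and the F test did not call it without that line. CBX6 was higher in KMS11 (0.82) on the row used, with a range of 0.89 between lines that the F test did not call without KMS11, whereas its dimmer row ranged over 0.40. On that row KMS11, at a line mean of 6.70 (log2), was not the highest: it lay below KMS18 (6.90) and OPM2 (6.94) and above KMS34 (6.54). Other members were nearly level over the lines. KMT2D measured 244, 239, 228 and 243 in knockdown cultures, against 250.1, 255, 255 and 252 in controls, with a range of 0.038 between line means (F test, adjusted p = 0.969). KMT5C, PRMT8 and KAT5, the TIP60 acetyltransferase, had line means within 1.05-fold, 1.05-fold and 1.08-fold of each other.

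The genes that flank a member on its chromosome were compared with it, taking the 10 nearest tested genes on each side by RefSeq order. For 32 pairs of a member and a line, the 4 largest in each direction and line, the median of the neighbours was taken. It was less than 0.5 times the member's difference or of the other sign in 29. It had the member's sign in 25 of the 32, and in 13 no neighbour lay further out. Since the members of these pairs were chosen for their size, smaller values next to them carry no test. The line differences given above for other members are not counted here. The 17 neighbours available for PHF10 had a median of 0.041 in KMS18 and ranged over -0.85 to 0.42. For PHF2 in KMS34 the neighbours had a median of 0.041. In 3 pairs the median of the neighbours was on the same side and at least 0.5 times as far out: SUV39H2 in KMS18 (median -0.38), KMT5A in KMS11 (-0.33) and PHF20L1 in OPM2 (-0.39).

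**Figure D5:**
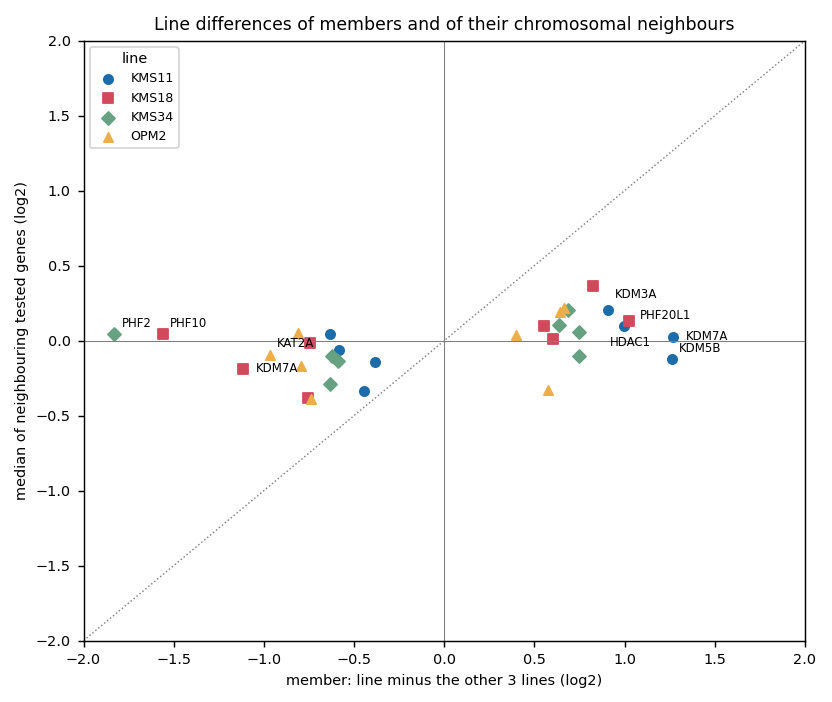
Median line difference of the flanking genes (log2, vertical axis) against the line difference of the member itself (log2, horizontal axis) for the 32 pairs of a member and a line, coloured by line. The dotted diagonal marks equal values; most points lie near the horizontal 0 line, and PHF2 in KMS34 and PHF10 in KMS18 are furthest left with neighbours near 0.

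Of the promoters shown, all 5 are rich in CpG, with 46 CpG in PHF2, 50 in KDM7A, 39 in PHF10, 36 in KDM4B and 25 in MTF2. PHF10 holds 7 GC boxes, PHF2 holds 4 with 1 TGACGT, and KDM7A holds 1. Over the 88 members with a RefSeq window, the median was 23.5 CpG and 67.8% GC, against 20 and 64.8% for 8528 tested genes. GGGCGG was found in 64.8% of member windows, against 64.5% of all, and CCAAT in 34.1%, against 34.4%. TGACGT was in 7.95%, against 9.89%, and TATAAA in 1.14%, against 5.8%. TTTGGCGC or TTTCCCGC, forms of the E2F motif, was in 4.55%, against 3.01%. These are matches of letters and do not show that a factor binds there.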

How the data were processed

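Per the series' design text the authors used GeneSpring, and they deposited a table of 44629 rows (transcript clusters) by 8 arrays, whose range fits linear intensity values. Background correction, normalization and summarization are not given in the sources used here. Quartiles were nearly equal over the arrays (median 49.3 to 53.5), and a common shift of all genes would not be seen. The number of arrays limits the precision, and detection calls were not used here. The tests had been planned for log2 values, and the intensities were log2-transformed for them.

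The platform annotation named 1 gene for 15835 rows, several for 0 and none for 28794, and gene identifiers matched RefSeq for 15835. Genes with a mean log2 value under the 25th percentile (5.54) were left out. All 11109 tested genes were fitted together in limma 3.58.1 (R 4.3.3), with knockdown and cell line as terms, and p-values were adjusted over all of them by the Benjamini-Hochberg method. The fits were tested on simulated data. The line pairs the arrays by its label: the deviations of a line's 2 arrays from their group means correlated at 0.925 to 0.932, and those of different lines at -0.135 at most.

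Named were up to 10 members in each direction by knockdown p, the PRC2 and lysine 36 genes, the 20 widest between lines and 4 per line and direction, and further members are given to complete a class. The members, classes and lists were chosen with earlier results of these data known, and the 1.2-fold counts, flanking genes and promoter motifs after the values were seen. Values are those of a gene's brightest row, and those of a second, further or dimmer row are named as such. KDM5D was counted but its values are not given. Alternatives were quantile normalization, median centring, other brightness limits, the mean of a gene's rows, other treatments of the line block, eBayes with trend and robust, another threshold and leaving out each line.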

Additional observations from a re-analysis of the deposited data

Results flagged for a closer look

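For a part of the named members the 4 arrays of a condition were compared by Dixon's test. In 6 of 84 such sets 1 array stood apart past the test's limit. A rate of 1 in 20, or 4.2 of the sets, would hold only for independent sets of genes chosen without regard to their values. Some named members were chosen for a wide range between lines, and the knockdown and control sets of a gene share their lines. The count is therefore no test. PHF2 had the lone low value of KMS34 in both conditions, 98.8 in the knockdown array and 89.3 in the control array, where the next lowest values were 340.1 and 309. PHF10 was lone and low in the control array of KMS18 at 140.3, and its knockdown array there read 140.3. HDAC1 in the control array of KMS11 was lone and high at 844, beside 905 in the knockdown array. CBX6 was lone and high at 407 in the control array of KMS11, beside 491 in the knockdown array. NSD1 was lone and low at 122 in the control array of KMS34, beside 138 in the knockdown array.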

How the results depend on the processing

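The count of members called by the knockdown test was 0 under every alternative run. Over all genes, 11 were lower and 2 higher, which became 4 and 0 with no limit on brightness, 7 and 0 after centring on array medians, 3 and 0 with cell line as a random block, 23 and 6 with trend and robust eBayes, and 1 to 4 and 0 on leaving out a line. A limit at the 50th percentile gave 4 higher. With no replicate block, 0 genes were lower and 0 higher in limma, 18 genes had an unadjusted p under 0.05, and the members with such a p were 0 lower and 0 higher, against 6 and 4 with the block. On leaving out a line these were 4 to 5 lower and 2 to 5 higher, with 2 higher without KMS11. Of 30 named knockdown differences, 25 kept their sign under the alternatives. Those near 0 did not: EZH1 was 0.0048 after quantile normalization and -0.047 to 0.028 over the fits without a line, SETD3 -0.020 to 0.056, KDM2A -0.040 to 0.054, KDM4A -0.12 to 0.017 and KDM4C -0.0052 to 0.051. Between lines, PHF2 in KMS18 was -0.0080 and in OPM2 -0.036 without KMS34, up to 0.92 and 0.89 without KMS11. Members higher in KMS34 numbered 16 (without KMS18) to 33, and in OPM2 11 (without KMS18) to 18. The cause was not tested beyond the fewer lines or genes in a fit.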
